A study of Drosophila melanogaster with 4 samples.

Results

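The insulator protein genes described here are Trl, CTCF, BEAF-32, su(Hw) and Cp190, chosen by symbol as 5 of the 17558 features counted in single cells of Drosophila melanogaster testis tumors. Single-cell RNA sequencing was run on tumors driven by overexpression of Unpaired (Upd), a ligand of the JAK-STAT pathway. In Nanos-Upd flies, GAL4::VP16-nanos.UTR, a germline driver, was placed over UAS-Upd in a y[1] w[1118] background that also carried P{hs70FLP}. In TrafficJam-Upd flies, traffic Jam-GAL4, a cyst cell driver, was placed over UAS-Upd in a w[1118] background. Both fly lines carried the reporter UAS-FRT-H3-GFP-FRT-H3-mKO, and each library came from pooled testis pairs. Each tumor type had 2 libraries, and no testis without Upd overexpression was analysed here. Tumor type therefore cannot be told apart from the fly line, including the y allele and the FLP transgene. The labels call the libraries replicates without saying whether they came from separate crosses, so p-values measure only the spread between these libraries.

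Insulator proteins bind DNA elements that limit contact between an enhancer and a promoter or between active and silent chromatin, and many of them sit at borders of chromosome domains. Trl encodes GAGA factor, which binds GAGA repeats and opens chromatin at promoters. CTCF encodes a zinc finger protein conserved in vertebrates, BEAF-32 encodes a protein first described at the scs' boundary element, and su(Hw) encodes the zinc finger protein that binds the gypsy insulator and is needed in the female germline. Cp190 encodes a BTB domain cofactor that is recruited by the DNA-binding proteins and links them to each other. In the testis, germline stem cells (GSCs) and cyst stem cells (CySCs) lie around a hub of somatic cells that secretes Upd, and excess Upd expands both stem cell populations.

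On BDGP6.54 (the dm6 sequence) with Ensembl 115 annotation, all 5 are protein-coding genes. Trl (FBgn0013263) spans 3L:14747929-14761049 on the minus strand with 10 annotated transcripts, and CTCF (FBgn0035769) spans 3L:7353578-7356713 on the minus strand with 1. BEAF-32 (FBgn0015602) spans 2R:14770469-14772630 on the plus strand with 3 transcripts. su(Hw) (FBgn0003567) lies at 3R:14304455-14308589 and Cp190 (FBgn0000283) at 3R:15270432-15275241, both on the minus strand, with 3 and 2 transcripts. Each gene overlaps at least 1 other annotated gene. Reads in overlaps may have been lost or assigned to the other gene, and the strand setting of the counting is not given in the sources used here. Trl shares 10034 bp with CG42507, which had no UMI in any sum, and 530 bp with Tsen34, both on its own strand. Strand cannot separate the genes in these overlaps, and whether Trl lost reads there was not tested. The other overlaps are with genes on the opposite strand. CTCF shares 882 bp with the antisense RNA asRNA:CR45822 and 45 bp at its 3' end with qm. BEAF-32 shares 827 bp with the antisense RNA asRNA:CR42254, whereas the overlap of Cp190 with Zip88E covers 101 bp and that of su(Hw) with IFT54 covers 4 bp.

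The libraries held 13190124 to 33499923 unique molecular identifiers (UMIs, counted cDNA molecules) in 3241 to 9093 cells each, 20618 cells in all. The authors had placed each cell in 1 of 5 classes, and UMIs were summed here over the cells of a class in a library, giving 20 sums. There were 10889 GSC-like and 8261 CySC-like cells, and the spermatocyte, somatic and muscle classes held 624, 515 and 329 cells. Levels are given as UMI counts scaled to the total of a sum (CPM, counts per 1e6 UMIs), which compare 1 gene across classes, not genes with each other. The class names were set against marker lists. The 8 early germline markers summed to 1497 CPM in the GSC-like class against 177 CPM in the CySC-like one, and the 11 cyst lineage markers to 246 CPM in the GSC-like class against 4347 CPM in the CySC-like one. Muscle markers reached 31134 CPM in the muscle class, and 10 spermatid genes reached 24992 CPM in the class named spermatocyte, against 810 CPM for the 8 spermatocyte markers there. The 4 terminal epithelium markers summed to 5828 CPM in the somatic class and 5609 CPM in CySC-like cells. Of 20583 distinct barcodes, 35 occurred in more than 1 library.

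All 5 genes were detected in all 5 classes and in all 20 sums. Their levels did not share 1 order across the classes. Cp190 and CTCF had their highest mean in GSC-like cells, BEAF-32 in CySC-like cells, su(Hw) in GSC-like cells and Trl in muscle. Trl, CTCF, BEAF-32 and su(Hw) had their lowest mean in the spermatocyte class, and Cp190 had its lowest mean in the somatic class. These orders are of CPM. With the scaling of the tests below, Trl and su(Hw) had log2 fold changes of opposite sign, GSC-like over CySC-like (-0.11 and -0.04). The same held for BEAF-32, GSC-like over muscle (-0.24), and Cp190, spermatocyte over somatic (-0.10). None of these was called. Of the 20 steps between neighbouring classes in these orders, the CPM ranges were separate for Cp190 between GSC-like and CySC-like cells and for BEAF-32 between the spermatocyte class and muscle. The ranges overlapped at the other 18 steps. How often the ranges of all genes are separate between classes was not computed, here or for the pairs below.

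**Figure D1:**
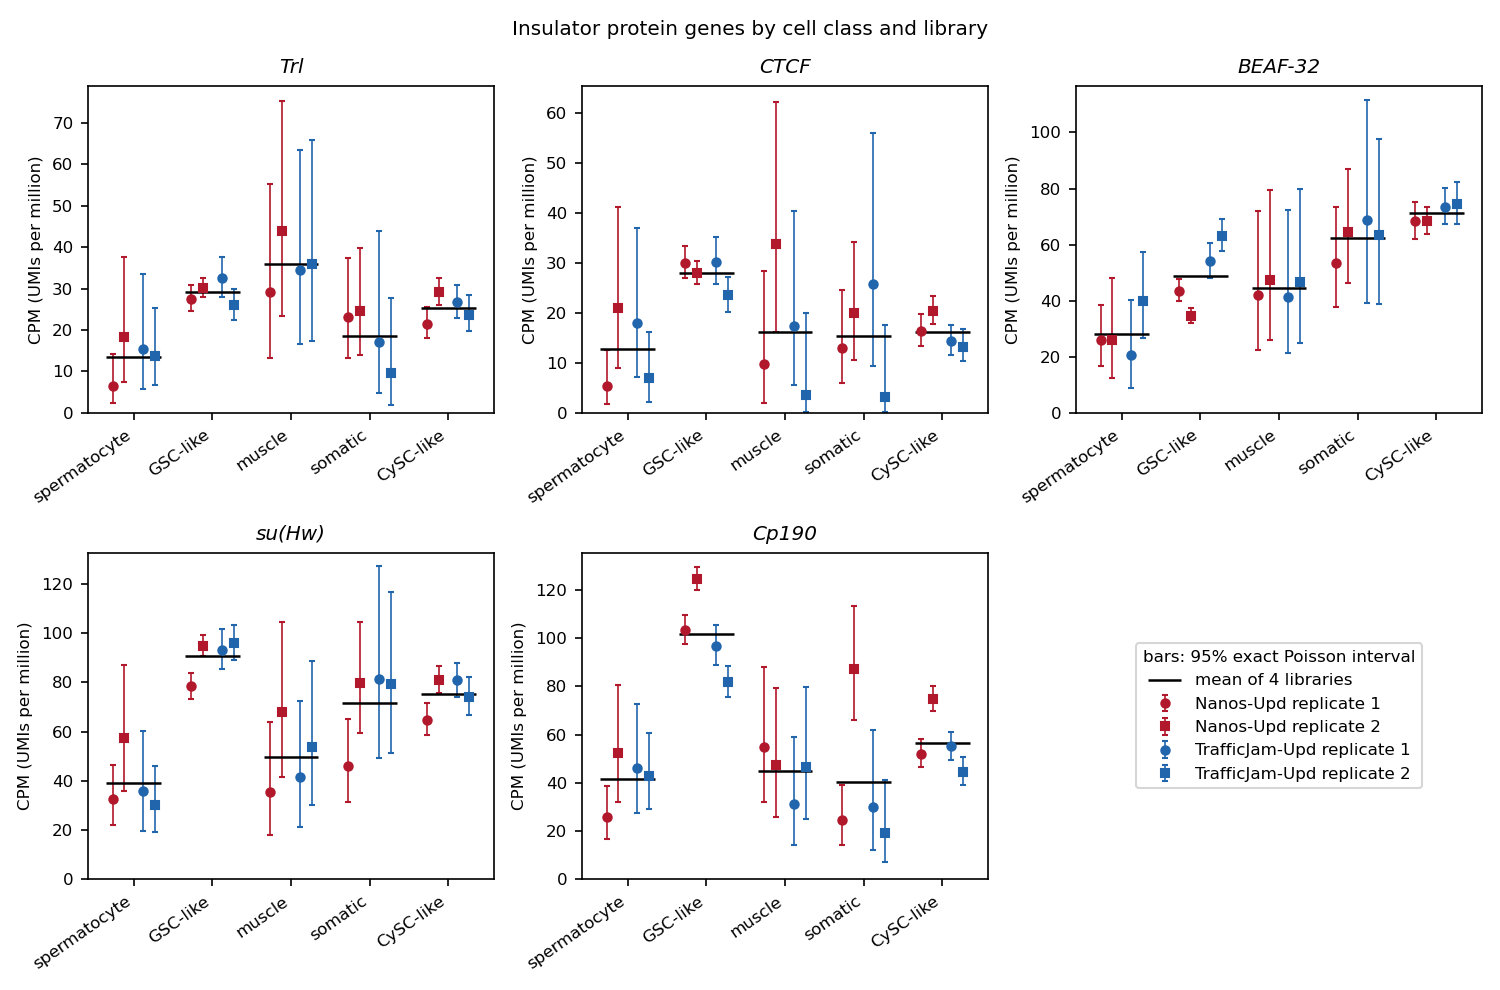
CPM (UMI counts scaled by the sum's total) of Trl, CTCF, BEAF-32, su(Hw) and Cp190 in each class, with 1 point per library, exact Poisson intervals of 95% that cover counting error only, and the mean of 4 libraries as a line. All 4 GSC-like points of Cp190 lie between 82.0 and 125 CPM, above all CySC-like points, whereas all 4 GSC-like points of BEAF-32 lie below its CySC-like points.

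Germline and cyst tumor cells differed in 3 of the 5 genes. Cp190 and CTCF were higher and BEAF-32 was lower in GSC-like than in CySC-like cells, and Trl and su(Hw) did not pass the test. Adjusted p-values come from edgeR's quasi-likelihood test on the sums with library as a block, adjusted by Benjamini-Hochberg over all genes tested, with 0.05 as the threshold. The background share of called genes was 72.6% of 8909, of which 35.1% of tested genes were higher and 37.4% lower, so 3 calls among 5 genes lie near the background.

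Cp190, the shared cofactor, was detected in GSC-like cells at 104 and 125 CPM in Nanos-Upd replicates 1 and 2 and at 96.9 and 82.0 CPM in TrafficJam-Upd replicates 1 and 2. In CySC-like cells it was at 52.1 and 74.8 CPM in the Nanos-Upd libraries and at 55.1 and 44.7 CPM in the TrafficJam-Upd libraries. The GSC-like values all lay above the CySC-like values, with means of 102 ± 17.7 CPM in GSC-like and 56.7 ± 12.9 CPM in CySC-like cells (SD, n = 4 each). Within a library the GSC-like level was 1.67 to 1.99 times the CySC-like level. The fitted log2 fold change of Cp190, GSC-like over CySC-like, was 0.54 ± 0.08 (SE), a 1.45-fold difference, with an edgeR adjusted p of 8.97e-05. The fit scales the sums by the TMM factors described below, so its fold differs from the CPM ratios. The depth behind these levels was 5042 UMIs in GSC-like and 1720 UMIs in CySC-like cells.

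In GSC-like cells CTCF was at 30.1 and 28.1 CPM in the Nanos-Upd libraries and at 30.2 and 23.5 CPM in the TrafficJam-Upd libraries. CySC-like cells had 16.3 and 20.4 CPM in the Nanos-Upd and 14.4 and 13.2 CPM in the TrafficJam-Upd libraries. Every GSC-like value again lay above every CySC-like value. The log2 fold change of CTCF was 0.47 ± 0.12, a 1.38-fold difference, with an edgeR adjusted p of 0.00397. The neighbour qm, which overlaps the end of CTCF on the other strand, had the opposite order, at 38.0 ± 3.60 CPM in GSC-like and 50.1 ± 3.72 CPM in CySC-like cells (SD, n = 4 each). The antisense RNA asRNA:CR45822 had the order of CTCF in its means, at 3.03 ± 3.21 CPM in GSC-like and 1.93 ± 2.17 CPM in CySC-like cells, with ranges that overlapped.

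BEAF-32 had the opposite direction. Its levels in GSC-like cells were 43.6 and 34.6 CPM in the Nanos-Upd and 54.1 and 63.1 CPM in the TrafficJam-Upd libraries, with a mean of 48.9 ± 12.4 CPM. CySC-like cells had 68.4 and 68.4 CPM in the Nanos-Upd and 73.6 and 74.5 CPM in the TrafficJam-Upd libraries, with a mean of 71.2 ± 3.26 CPM. The GSC-like values all lay below the CySC-like values and were spread more widely. The GSC-like level was 0.506 to 0.847 times the CySC-like level within a library. The log2 fold change of BEAF-32 was -0.90 ± 0.13, and the level was 1.87-fold lower in GSC-like cells by the fit (edgeR adjusted p = 0.000147). The antisense RNA asRNA:CR42254 had the opposite order, at 29.1 ± 4.06 CPM in GSC-like and 11.5 ± 2.80 CPM in CySC-like cells (SD, n = 4 each), and whether counting across the overlap moved either value was not tested.

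Trl and su(Hw) differed less between the germline and cyst tumor cells, and their direction depended on the scaling. In GSC-like cells Trl was at 27.6, 30.2, 32.5 and 26.0 CPM, and in CySC-like cells at 21.5, 29.1, 26.7 and 23.7 CPM, in the order Nanos-Upd replicates 1 and 2 and TrafficJam-Upd replicates 1 and 2. The ranges overlapped. In the same order su(Hw) had 78.4, 94.9, 93.2 and 96.0 CPM in the GSC-like class, against 64.8, 80.9, 80.7 and 74.1 CPM in the CySC-like class. The GSC-like level of su(Hw) was the higher one within each of the 4 libraries, by 1.15 to 1.30 times. With TMM factors, which set the bulk of genes level between classes, the log2 fold change was -0.11 ± 0.10 for Trl (edgeR adjusted p = 0.295) and -0.04 ± 0.08 for su(Hw) (edgeR adjusted p = 0.637). Approximate intervals of 95% of the 2 log2 fold changes ran from -0.30 to 0.07 for Trl and from -0.20 to 0.12 for su(Hw). They use the SE and a normal distribution, which makes them too narrow for so few libraries.

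Scaling by library size alone, chosen after the data were seen, moved the median log2 fold change of all genes by 0.32, to 0.26 from -0.06. The same scaling changed the split of calls to 4291 higher and 2213 lower, against 3128 higher and 3336 lower with TMM. Under it the log2 fold change of Trl became 0.20 (edgeR adjusted p = 0.0876) and that of su(Hw) became 0.27 (edgeR adjusted p = 0.00644). Relative to the median of all genes, su(Hw) lay at 0.02 with TMM and 0.01 with library size, and Trl at -0.05 with TMM and -0.06 with library size. BEAF-32 stayed lower at -0.59, and CTCF and Cp190 stayed higher at 0.78 and 0.85. The calls for Cp190, CTCF and BEAF-32 held in 12 of 12 alternatives, which included leaving out each library in turn.

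**Figure D2:**
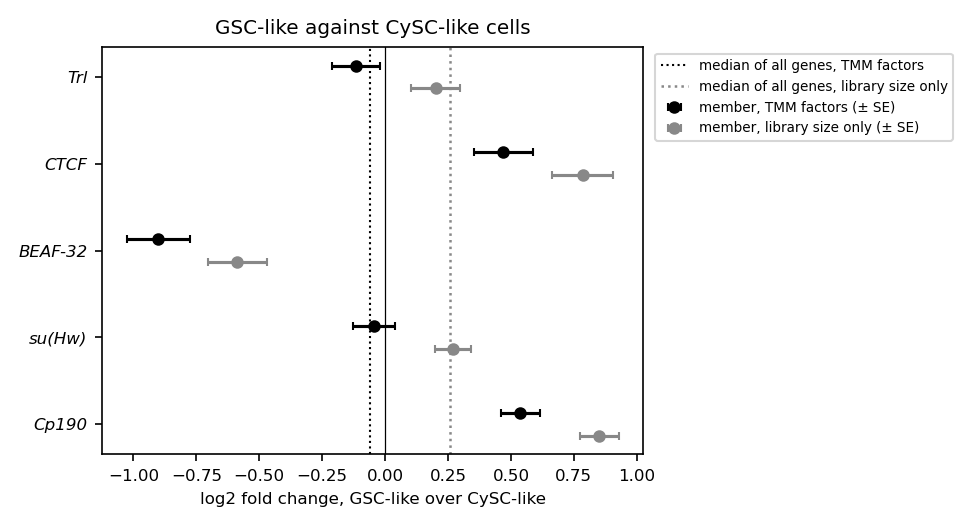
Log2 fold change (± SE) of the 5 genes, GSC-like over CySC-like cells, with TMM factors (black) and with library size only (grey); dotted lines mark the median of all tested genes under each scaling. BEAF-32 lies left of 0 and CTCF and Cp190 right of 0 under both scalings, whereas Trl and su(Hw) change sign with the scaling.

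Detection per cell was sparse. With every cell thinned to 2200 UMIs, Cp190 had a UMI in 16.1 to 23.7% of GSC-like and 9.25 to 15.1% of CySC-like cells, and BEAF-32 in 7.15 to 12.7% of GSC-like and 13.6 to 15.5% of CySC-like cells. Before thinning, the shares were 28.1 to 37.3% of GSC-like and 13.2 to 22.1% of CySC-like cells for Cp190, and 12.2 to 23.2% and 20.4 to 22.1% for BEAF-32, at median depths of 3531 to 5014 UMIs per GSC-like cell and 2868 to 3323 UMIs per CySC-like cell. The thinned shares had the direction of the CPM for both genes. Cells with a UMI of Cp190 held 1.25 to 1.34 UMIs on average in the GSC-like class and 1.11 to 1.15 in the CySC-like class. At this depth fewer expressing cells and less RNA per cell cannot be told apart. None of the 5 classes is known to lack these genes, so the level that free RNA in the droplets gives them was not tested.

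The spermatocyte class had the lower level of all 5 genes when set against GSC-like cells. In the spermatocyte class Cp190 was at 25.9, 52.2, 46.1 and 42.7 CPM in Nanos-Upd replicates 1 and 2 and TrafficJam-Upd replicates 1 and 2, and all 4 values lay below the lowest GSC-like value of 82.0 CPM. su(Hw) was at 32.4, 57.4, 35.8 and 30.3 CPM in the spermatocyte class, below its GSC-like range of 78.4 to 96.0 CPM. The ranges of both genes were thus separate between the classes, as were those of Trl and CTCF. Trl in the spermatocyte class was at 6.48, 18.3, 15.4 and 13.8 CPM and CTCF at 5.40, 20.9, 17.9 and 6.89 CPM, against GSC-like ranges of 26.0 to 32.5 CPM for Trl and 23.5 to 30.2 CPM for CTCF. BEAF-32 was at 25.9, 26.1, 20.5 and 40.0 CPM in the spermatocyte class, and its highest value overlapped the GSC-like range of 34.6 to 63.1 CPM.

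The log2 fold changes, spermatocyte over GSC-like, were -1.15 ± 0.25 for Cp190 (edgeR adjusted p = 0.00275) and -1.09 ± 0.23 for su(Hw) (edgeR adjusted p = 0.00229). These are 2.22-fold and 2.13-fold lower levels, and both calls held in 12 of 12 alternatives. For CTCF the log2 fold change was -1.17 ± 0.36 (edgeR adjusted p = 0.0177), and for Trl it was -1.03 ± 0.30 (edgeR adjusted p = 0.0129). BEAF-32 had the smallest change of the 5, -0.60 ± 0.23, with an edgeR adjusted p of 0.0427 that stayed under the threshold in 4 of 12 alternatives. Without Nanos-Upd replicate 1 the calls of Trl, CTCF and BEAF-32 were lost (adjusted p = 0.0667, 0.0952 and 0.0890), and without TrafficJam-Upd replicate 2 those of CTCF and BEAF-32 (adjusted p = 0.0632 and 0.0678). The call of BEAF-32 was also lost without TrafficJam-Upd replicate 1 (adjusted p = 0.0723), and that of Trl with equal cell numbers (adjusted p = 0.0778). With library size only, all 5 were called, between -0.77 for BEAF-32 and -1.33 for CTCF, while the median of all genes moved by -0.17. Of 9079 genes tested, 65.8% were called and 32.6% were lower, and the median log2 fold change of all genes was -0.22. The spermatocyte levels rest on 25 to 93 UMIs per gene over the 4 libraries. Ribosomal protein transcripts, as the authors' deposited percent of UMIs, had medians of 10.6 to 18.8% in the spermatocyte class and 29.3 to 36.6% in GSC-like cells, and their part in these differences was not tested.

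Against CySC-like cells, 4 of the 5 genes were lower in the spermatocyte class, where the background was 34.4% lower of 8998 genes. BEAF-32 had the largest of these log2 fold changes, -1.48 ± 0.25 (edgeR adjusted p = 0.000315), followed by Trl at -1.14 ± 0.30 and su(Hw) at -1.13 ± 0.23. Cp190, at -0.61 ± 0.25, had an edgeR adjusted p of 0.0481 and kept its call in 7 of 12 alternatives. CTCF did not pass the test at -0.68 ± 0.37 (edgeR adjusted p = 0.123). The spermatocyte class was also lower in BEAF-32 and su(Hw) than the somatic class, with log2 fold changes of -1.35 and -1.08. These were 2 of 3 members tested (background 34.2% lower of 6088). The call of BEAF-32 was kept in 12 of 12 alternatives and that of su(Hw) in 10 of 12, and DESeq2 called 1 of the 3. The median of all genes was -0.11 there with TMM and 0.12 with library size only. Against muscle, the spermatocyte class was lower in Trl, at -1.64 ± 0.44 (edgeR adjusted p = 0.000339). BEAF-32 was also lower than in muscle, at -0.82 ± 0.37, a call kept in 3 of 12 alternatives (background 31.3% lower of 4920). DESeq2 called 1 of the 4 members tested against muscle, and the median moved from 0.12 with TMM to 0.32 with library size only.

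The somatic class did not differ from CySC-like cells in any of the 5 genes by edgeR at the adjusted threshold, at an unadjusted p under 0.05 or by DESeq2, where the background was 24.9% of 7838 genes. BEAF-32 was at 53.4, 64.4, 68.6 and 63.3 CPM in the somatic class, which overlapped its CySC-like range of 68.4 to 74.5 CPM. The somatic level of Cp190 was 24.5 CPM in Nanos-Upd replicate 1, 87.4 CPM in Nanos-Upd replicate 2, 30.0 CPM in TrafficJam-Upd replicate 1 and 19.0 CPM in TrafficJam-Upd replicate 2. A single library thus stood above the other somatic values. Without Nanos-Upd replicate 2 the log2 fold change of Cp190, somatic over CySC-like, was -0.98 (edgeR adjusted p = 0.0129), against -0.46 ± 0.24 (edgeR adjusted p = 0.205) with all 4 libraries. GSC-like cells had more Cp190 than the somatic class, with a log2 fold change of 1.15 ± 0.27 (edgeR adjusted p = 0.00172) that was 1.77 without Nanos-Upd replicate 2 (edgeR adjusted p = 2.53e-05), and less BEAF-32, at -0.65 ± 0.21 (edgeR adjusted p = 0.0147, kept in 7 of 12 alternatives), against a background of 56.7% of 8071 genes. Scaling by library size alone moved the median of all genes by 0.24 there and the calls to 3154 higher and 1847 lower, against 2376 and 2201 with TMM, and BEAF-32 then had -0.42 (edgeR adjusted p = 0.102).

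Muscle had the highest mean level of Trl, at 29.1 and 44.0 CPM in the Nanos-Upd and 34.5 and 35.9 CPM in the TrafficJam-Upd libraries. Its log2 fold change over CySC-like cells was 0.70 ± 0.26 (edgeR adjusted p = 0.04996; 28.2% of 7526 genes called). GSC-like cells had less Trl than muscle, at -0.65 ± 0.27 (edgeR adjusted p = 0.0464), and more Cp190, at 0.82 ± 0.23 (edgeR adjusted p = 0.00568; 49.0% of 8029 genes called). Each of the Trl calls was kept in 4 of 12 alternatives and rests on 42 muscle UMIs, and that of Cp190 was kept in 11 of 12. Scaling by library size alone moved the medians of all genes by 0.35 for GSC-like over muscle and by -0.19 for muscle over CySC-like. It called 3226 genes higher and 1473 lower in GSC-like cells than in muscle, against 2089 and 1842 with TMM, and 925 higher and 1533 lower in muscle than in CySC-like cells, against 1126 and 996 with TMM. With that scaling Trl was not called against GSC-like or CySC-like cells (edgeR adjusted p = 0.342 and 0.150), su(Hw) was lower in muscle than in either, and BEAF-32 was lower in muscle than in CySC-like cells (edgeR adjusted p = 0.0194). Between muscle and the somatic class none of 3 members tested was called by edgeR, none had an unadjusted p under 0.05 and none was called by DESeq2 (28.9% of 3483 genes called by edgeR). CTCF in muscle was at 9.71, 33.9, 17.3 and 3.59 CPM in the 4 libraries, from 19 UMIs, and it was called neither against GSC-like cells (edgeR adjusted p = 0.348) nor against CySC-like cells (edgeR adjusted p = 0.814).

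Over the 10 pairs of classes, the 5 genes were called in 21 of 45 tests (46.7%), against a background of 54.7% of 72941 tests over all genes. Leaving out Nanos-Upd replicate 1 lowered that number to 13, and leaving out other libraries gave 15 to 18.

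Between tumor types, none of the 5 genes passed the adjusted threshold in any class. In GSC-like cells edgeR called 0 of 5 genes, with 1 at an unadjusted p under 0.05 and 1 called by DESeq2, which was BEAF-32 in both cases; the background was 3.12% of 9466 genes. BEAF-32 in GSC-like cells was at 43.6 and 34.6 CPM in Nanos-Upd tumors and at 54.1 and 63.1 CPM in TrafficJam-Upd tumors. The groups did not overlap, as was the case for 59.7% of the genes tested in this class. The log2 fold change of BEAF-32, Nanos-Upd over TrafficJam-Upd, was -0.74 ± 0.20, with an edgeR adjusted p of 0.0579 and a range of 0.00106 to 0.348 over 13 alternatives, 7 of which called it. DESeq2 gave an adjusted p of 0.0405. Among the 7 alternatives that called BEAF-32 was the crossed replicate block, which pairs replicate 1 of one tumor type with replicate 2 of the other. That pairing was chosen after these data were seen, so its call is not independent support. With 1 library left out, the edgeR adjusted p was 0.0214 when that was Nanos-Upd replicate 1, 0.163 for Nanos-Upd replicate 2, 0.0122 for TrafficJam-Upd replicate 1 and 0.348 for TrafficJam-Upd replicate 2. Scaling by library size alone moved the median of all genes by 0.15, to 0.21 from 0.05, and the calls to 341 higher and 61 lower, against 194 higher and 101 lower with TMM; BEAF-32 then had -0.59 (edgeR adjusted p = 0.106).

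The median ribosomal percent of GSC-like cells was 31.6 and 29.3% in Nanos-Upd tumors, against 33.8 and 36.6% in TrafficJam-Upd tumors. Across the 4 libraries it had the same order as BEAF-32. The 11 cyst lineage markers, all detected in GSC-like sums except 1 at 0 in 1 library, summed to 202 and 390 CPM in Nanos-Upd tumors, against 159 and 233 CPM in TrafficJam-Upd tumors. The part of either in the level of BEAF-32 was not tested.

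In CySC-like cells edgeR called 0 of 5 genes between tumor types, with 0 at an unadjusted p under 0.05 and 0 by DESeq2 (2.84% of 8701 genes called). BEAF-32 was at 68.4 and 68.4 CPM in Nanos-Upd and 73.6 and 74.5 CPM in TrafficJam-Upd tumors, a log2 fold change of -0.27 ± 0.13 (edgeR adjusted p = 0.215). These groups did not overlap either, as was the case for 60.5% of genes. The difference between the 2 classes was tested as an interaction, in which BEAF-32 had -0.57 ± 0.19 with an unadjusted p of 0.00447 and an edgeR adjusted p of 0.168. None of the 5 genes was called in that test or by DESeq2 (1.35% of 9787 genes called by edgeR). CTCF, at -0.38 ± 0.23 in the interaction, was the next in size.

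In GSC-like cells Cp190 had 104 and 125 CPM in Nanos-Upd tumors, against 96.9 and 82.0 CPM in TrafficJam-Upd tumors, a log2 fold change of 0.20 ± 0.19 (edgeR adjusted p = 0.519). The groups did not overlap, which held for 59.7% of the genes tested in GSC-like cells. In CySC-like cells its groups overlapped, with a log2 fold change of 0.19 ± 0.17 (edgeR adjusted p = 0.497). For Trl, CTCF and su(Hw), the log2 fold changes between tumor types were between -0.28 and -0.03 in GSC-like cells and between -0.24 and 0.26 in CySC-like cells. In the spermatocyte, somatic and muscle classes edgeR called 0 of 4 members tested in each, with 0 at an unadjusted p under 0.05 and 0 by DESeq2, against 0.669%, 0.184% and 0.0% of all genes. DESeq2 gave no adjusted p for CTCF in the spermatocyte class or for Trl and Cp190 in the somatic class. In muscle, where edgeR called 0 of 3361 genes, 259 had an unadjusted p under 0.05 and DESeq2 called 7. Without Nanos-Upd replicate 1, Cp190 in the somatic class was called, at 1.75 (edgeR adjusted p = 0.00976), against 1.16 ± 0.65 with all libraries. The levels in these 3 classes rest on 19 to 128 UMIs per member and class over the 4 libraries.

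**Figure D3:**
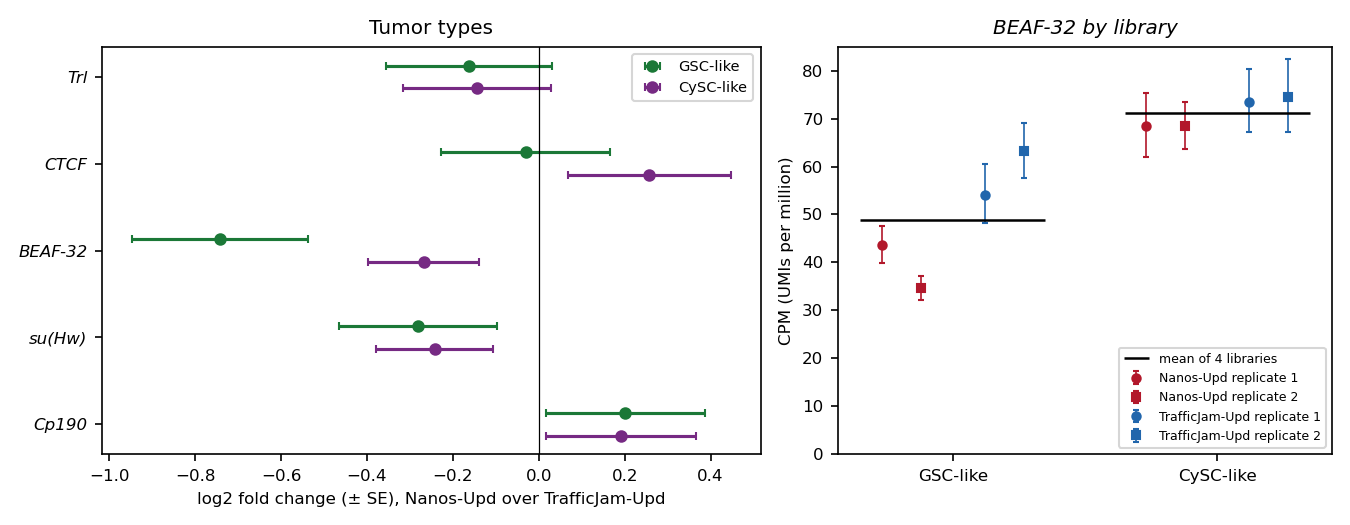
Left, log2 fold change (± SE) of the 5 genes, Nanos-Upd over TrafficJam-Upd tumors, in GSC-like and CySC-like cells. Right, CPM of BEAF-32 by library with exact Poisson intervals of 95%; in GSC-like cells the Nanos-Upd points, at 43.6 and 34.6 CPM, lie below the TrafficJam-Upd points at 54.1 and 63.1 CPM.

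Other genes of insulator and chromosome architecture were more often higher in GSC-like cells. Of 34 related genes found in the table, 33 could be tested between GSC-like and CySC-like cells, and 24 were higher, 4 lower and 5 not called. They had a median log2 fold change of 0.66, where that of all genes was -0.06; among all genes tested 35.1% were higher and 37.4% lower. With library size only, 28 were higher and 3 lower. The list held 12 other DNA-binding insulator proteins, 9 cofactors, 7 cohesin and condensin genes and 6 partners of GAGA factor. It was chosen with earlier results of these data known, so counts from it are descriptions.

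Among the other DNA-binding proteins, 7 of 11 tested were higher and none lower in GSC-like cells. Elba3, a subunit of the ELBA complex of the early embryo, was at 9.75 ± 2.27 CPM in GSC-like and 1.12 ± 0.682 CPM in CySC-like cells (SD, n = 4 each), a log2 fold change of 2.71 ± 0.32 (edgeR adjusted p = 2.01e-05). insv, a BEN domain repressor related to the ELBA proteins, was at 17.3 ± 3.03 CPM in GSC-like and 4.05 ± 2.18 CPM in CySC-like cells, with a log2 fold change of 1.82 ± 0.31. Elba2, the partner of Elba3, was also higher, at 1.09 ± 0.22, whereas Elba1 was too low to test. Clamp, which binds GA repeats as GAGA factor does, was not called, at -0.08 ± 0.08.

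All 6 partners of GAGA factor were higher in GSC-like cells, although Trl itself was not called. The FACT histone chaperone subunits Ssrp and dre4 had log2 fold changes of 1.25 ± 0.09 and 1.17 ± 0.08. Ssrp was at 329 ± 61.9 CPM in GSC-like and 111 ± 22.5 CPM in CySC-like cells. Among the remaining partners, lolal and psq, both BTB proteins, had 0.78 ± 0.08 and 0.34 ± 0.08, E(bx), a subunit of the NURF remodeler, had 0.78 ± 0.09, and Bap170, a subunit of the PBAP remodeler, had 0.90 ± 0.09.

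The cohesin genes SA, SMC1, SMC3 and Nipped-B were higher in GSC-like cells, and the condensin genes were split. SA, a cohesin subunit, was at 51.1 ± 6.68 CPM in GSC-like and 12.4 ± 3.73 CPM in CySC-like cells, with a log2 fold change of 1.74 ± 0.12 (edgeR adjusted p = 2.88e-07). SMC1 and SMC3, which form the arms of the cohesin ring, had 1.33 ± 0.08 and 1.03 ± 0.10. vtd, the kleisin that closes the mitotic ring, was not called, at -0.04 ± 0.09. Cap-H2, a condensin II subunit, was at 14.0 ± 3.25 CPM in GSC-like and 25.7 ± 4.78 CPM in CySC-like cells, a log2 fold change of -1.20 ± 0.11 (edgeR adjusted p = 2.02e-06), whereas Cap-D3 of the same complex was higher in GSC-like cells at 0.72 ± 0.14.

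Of the 9 cofactors, 6 were higher and 3 lower. Rm62, an RNA helicase that acts with Cp190, was lower in GSC-like cells at -0.83 ± 0.07, and fs(1)h, a bromodomain protein, at -0.61 ± 0.08. The call of e(y)2, a subunit of the SAGA complex, at -0.23 ± 0.09 (edgeR adjusted p = 0.0438), was kept in 4 of 12 alternatives and turned to 0.08 with library size only. l(3)mbt and Chro, at 1.11 ± 0.10 and 0.76 ± 0.08, were higher. The calls of Elba3, insv, SA, SMC1, Ssrp, dre4, Cap-H2, Rm62 and fs(1)h were kept in 12 of 12 alternatives.

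**Figure D4:**
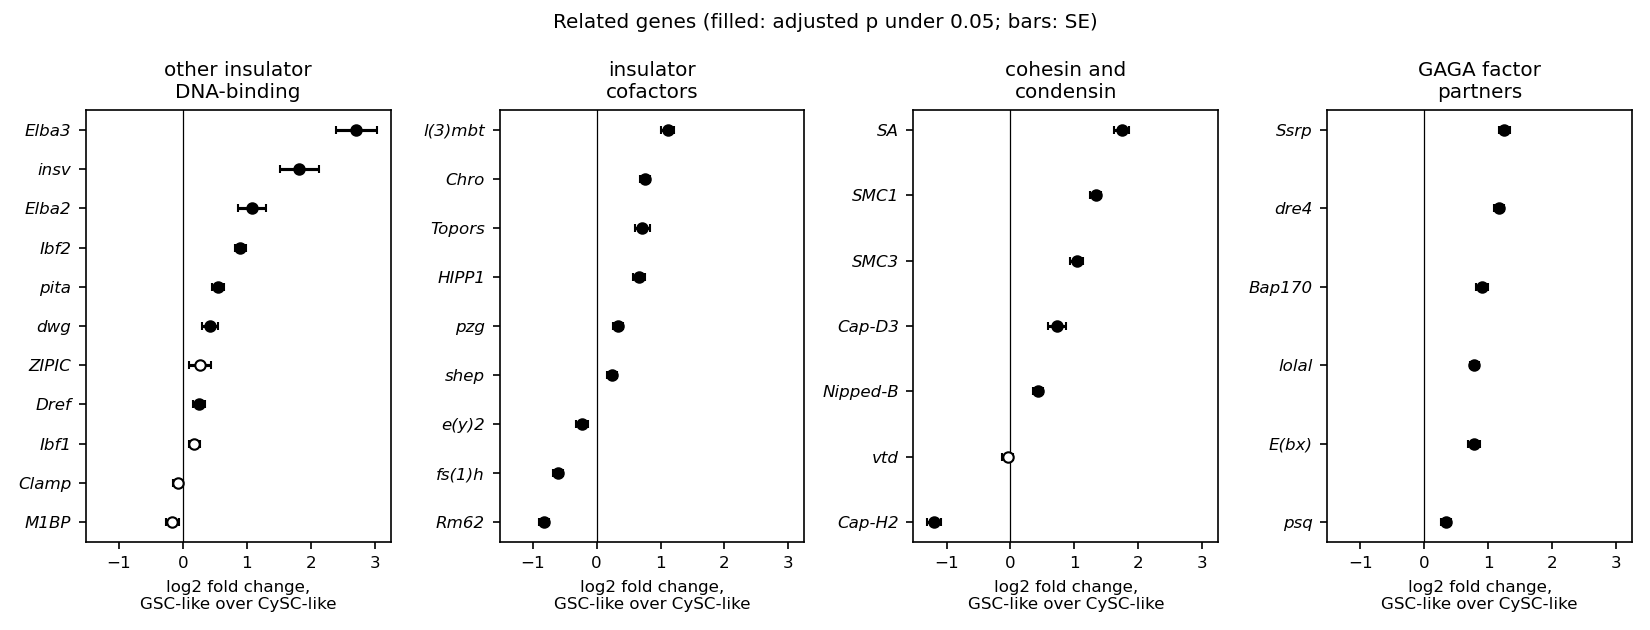
Log2 fold change (± SE), GSC-like over CySC-like cells, of the 33 related genes tested, in 4 groups; filled points have an edgeR adjusted p under 0.05. All 6 partners of GAGA factor lie right of 0, and Elba3 at 2.71 and Cap-H2 at -1.20 are the extremes.

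In the spermatocyte class 22 of 33 related genes were lower than in GSC-like cells, none was higher and 11 were not called, where 32.6% of all 9079 genes tested were lower and 65.8% were called. The related genes had a median log2 fold change of -1.02, where that of all genes was -0.22. The 3 with the largest decrease were SMC1 at -1.80 ± 0.26, psq, a BTB protein that binds GAGA repeats, at -1.76 ± 0.19, and SMC3 at -1.60 ± 0.35. Each of these calls was kept in 12 of 12 alternatives. By group, 8 of 9 cofactors, 6 of 6 partners of GAGA factor, 4 of 7 cohesin and condensin genes and 4 of 11 DNA-binding proteins were lower. Nipped-B, the cohesin loader, was not called, at 0.06 ± 0.21.

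Between tumor types no related gene was called by edgeR in GSC-like cells, where 33 were tested and 2 had an unadjusted p under 0.05, or in CySC-like cells, where 32 were tested and 3 had one. DESeq2 called 0 in both. The interaction called 0 of 33, with 0 at an unadjusted p under 0.05 and 0 by DESeq2. In GSC-like cells the crossed replicate block, which pairs replicate 1 of one tumor type with replicate 2 of the other, called Nipped-B, vtd, M1BP and Ibf2, and it called 2484 of all 9466 genes, against 295 without a block. In CySC-like cells Ibf2 was called with no filter on low counts, and in the interaction insv was called without TrafficJam-Upd replicate 2. The other alternatives called none of the related genes in these 3 comparisons.

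Over the 20 sums the genes of the group were only partly alike in pattern. Pearson's r of log2(CPM + 1) was 0.62 between CTCF and Cp190 and also 0.62 between BEAF-32 and su(Hw), but 0.05 between BEAF-32 and Cp190 and 0.07 between BEAF-32 and CTCF. The 20 points share 4 libraries and differ in depth by class, so these are descriptions. Among 5863 genes with a mean of at least 20 CPM, the most alike to BEAF-32 were Cyt-c-p (r = 0.94), Lamtor5 (0.93) and COX4 (0.92). For Cp190 they were TppII (0.92), CG11030 (0.90) and pic (0.90), and for CTCF they were beta'COP (0.89), Apc (0.87) and Atx2 (0.85). su(Hw) was closest to Pabp2 (0.93), CG1737 (0.91) and Pat1 (0.91), and Trl to vib (0.89), CaMKII (0.87) and Sema1a (0.87). The 5 genes were left out of the search for the nearest 3, so these lists do not compare them with each other.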

How the data were processed

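A table of whole-number UMI counts, with genes in lines and cells in columns, was deposited by the authors together with cell annotations (library, class, and percent of ribosomal and mitochondrial UMIs). Per the submitters' processing notes, Cell Ranger 7.0.0, Seurat 5.0.3 and dm6 were used; the roles of the tools, the annotation, the strand setting and how classes were assigned are not given in the sources used here. The deposited counts are raw, and their sum matched the deposited total in 20618 of 20618 cells. Per cell, UMIs ran from 2200 to 7499, the mitochondrial and ribosomal percents stayed under 10 and 40, and no doublet caller was run here.

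Counts were summed per class and library and tested with edgeR 4.0.16 (R 4.3.3; TMM, filterByExpr, robust quasi-likelihood fit), adjusted over all genes tested. Pairs of classes had library as a block; tumor types were compared within a class, 2 libraries against 2, and the class by tumor type interaction used GSC-like and CySC-like sums. Alternatives were DESeq2 1.42.0, RLE factors, no filter, cells with at least 3000 UMIs, equal cell numbers, each library left out, cells with at least 2 early germline and 2 cyst markers left out, and the block. Nothing in the labels says that libraries with the same number share a batch across tumor types, so the block was left out there. Scaling by library size only and, between tumor types, the crossed replicate block were added after the data were seen. Both are counted among the alternatives.

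The members and lists were chosen with earlier results of these data known. Beside the 5 members, the related genes named were the called ones with the largest change, up to 6 in each direction between GSC-like and CySC-like cells and up to 3 in the other comparisons, and for likeness the nearest 3; other related genes were named after their values were seen. mod(mdg4) was not analysed here. The Poisson intervals of CPM cover counting error only, whereas the intervals of log2 fold changes also hold the spread between libraries. The SE of an edgeR log2 fold change was derived as its size divided by the square root of the test's F statistic. Gene positions come from BDGP6.54, Ensembl release 115.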

Additional observations from a re-analysis of the deposited data

Results flagged for a closer look

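Within the 25 combinations of gene and class, each with 4 libraries, 3 had 1 library far from the others by Dixon's criterion. Chance gives about 1 such combination in 20. su(Hw) in GSC-like cells was lowest in Nanos-Upd replicate 1, at 78.4 CPM, and su(Hw) in the somatic class was lowest in the same library, at 46.2 CPM. Cp190 in the somatic class was highest in Nanos-Upd replicate 2, at 87.4 CPM, from 57 UMIs.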

How the results depend on the processing

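GSC-like against CySC-like cells kept 3 called members (4 with library size only) and the interaction kept 0, in all alternatives run. The 21 calls over all pairs became 13 to 18 with 1 library left out. DESeq2 called 4 members against 5 by edgeR for spermatocyte over GSC-like, and 3 against 4 for spermatocyte over CySC-like. It called 0 against 1 for muscle over CySC-like, and 1 against 2 for GSC-like over muscle, spermatocyte over somatic and spermatocyte over muscle. The other pairs had equal counts. Between tumor types the count of 0 became 1 with DESeq2, RLE factors, no filter, mixed cells left out and the crossed replicate block, and 0 to 2 with 1 library left out. The replicate block left it at 0. A fit with 1 library in a tumor type assumes that it varies like the others. Same-numbered libraries deviated with r of -0.26 in the GSC-like, -0.25 in the CySC-like, 0.43 in the spermatocyte, -0.13 in the somatic and 0.36 in the muscle class; the values under -0.1 are why the crossed pairing was added. Reversals of sign were not counted for muscle over somatic or for tumor types in the spermatocyte, somatic and muscle classes. Signs reversed there too, as for BEAF-32 between tumor types in the spermatocyte class, at -0.37 and up to 0.25 in the alternatives. In the other comparisons the sign of a log2 fold change reversed in 35 cases, of which 1 passed the threshold in either fit. That case was su(Hw), GSC-like over CySC-like, at 0.27 with library size only, and the cause was not tested. Library size only also gave 0.20 (Trl, GSC-like over CySC-like), 0.11 (BEAF-32, GSC-like over muscle), 0.11 (Cp190, spermatocyte over somatic), -0.022 (CTCF, muscle over CySC-like), 0.12 (CTCF, tumor types, GSC-like), 0.018 (Trl, tumor types, CySC-like) and 0.012 (Cp190, interaction). For Cp190, spermatocyte over somatic, DESeq2 gave 0.37, RLE 0.24 and no filter 0.16, and for its interaction DESeq2 gave 0.014 and RLE 0.013. Cells with at least 3000 UMIs gave 0.23 (CTCF, somatic over CySC-like), -0.11 (CTCF, muscle over CySC-like) and 0.020 (CTCF, tumor types, GSC-like), for the last of which equal cell numbers gave 0.028. Mixed cells left out gave 0.0093 (su(Hw), somatic over CySC-like) and 0.063 (Cp190, muscle over CySC-like), and no replicate block gave 0.0020 (CTCF, somatic over CySC-like). Leaving out 1 library gave -0.10 to 0.014 (su(Hw), GSC-like over CySC-like), -0.23 to 0.36 (Cp190, spermatocyte over somatic), -0.30 to 0.13 (CTCF, somatic over CySC-like), -0.11 to 0.078 (su(Hw), somatic over CySC-like), -0.26 to 0.38 (CTCF, muscle over CySC-like), -0.30 to 0.062 (Cp190, muscle over CySC-like), -0.13 to 0.038 (CTCF, tumor types, GSC-like), -0.36 to 0.0068 (Trl, tumor types, CySC-like), -0.073 to 0.38 (Cp190, tumor types, CySC-like), and, in the interaction, -0.14 to 0.20 (Trl), -0.27 to 0.036 (su(Hw)) and -0.16 to 0.20 (Cp190).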

Other observations

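The share of cells in which no UMI of any of the 5 genes was found was 24.1 to 33.2% in GSC-like, 42.6 to 48.5% in CySC-like, 54.7 to 71.5% in spermatocyte, 38.2 to 57.5% in somatic and 44.0 to 55.1% in muscle cells of the 4 libraries. These shares were not thinned to a common depth. Cells with UMIs of all 5 genes made up at most 0.36% of GSC-like cells in a library. The highest share of any class was 1.06%, among the 94 spermatocyte class cells of TrafficJam-Upd replicate 1. The antisense RNA on BEAF-32, asRNA:CR42254, was at 13.7 ± 7.97 CPM in the spermatocyte class and 14.5 ± 4.47 CPM in muscle (SD, n = 4 each), and Zip88E, which overlaps Cp190, was at 15.2 ± 4.27 CPM in the somatic class.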
